A study of Homo sapiens with 3 samples.

Results

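Small nucleolar RNA host genes are genes whose introns carry small nucleolar RNAs (snoRNAs). The members described here are the genes named SNHG followed by a number in GENCODE release 44, with GAS5, EPB41L4A-AS1 and ZFAS1, which have no such name. The rule uses names only and no measured value. It found 31 members, and all of them were among the 58051 genes of the deposited table. The cells were H9, an established human embryonic stem cell line, of wild-type genotype and without treatment, and 1 library of total RNA depleted of ribosomal RNA was made from each of 3 replicates. The replicates had 10390984, 12024802 and 8655155 counted reads. Nothing in the labels says that they were separate cultures, so the spread between them may be technical. With a single condition there was nothing to test between groups. In bulk RNA of this kind, fewer cells that express a gene and less RNA per cell cannot be told apart.

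A snoRNA host is transcribed by RNA polymerase II, spliced, and used mainly for its introns. The debranched intron is trimmed by exonucleases until they meet the proteins bound to the snoRNA. Box C/D snoRNAs guide methylation of the ribose in ribosomal RNA, H/ACA snoRNAs guide conversion of uridine to pseudouridine, and the related RNAs of the Cajal body guide the same changes in the RNAs of the spliceosome. The spliced exons of many noncoding hosts, GAS5 among them, encode no long protein and are degraded in the cytoplasm by nonsense-mediated decay when they are translated. Many hosts, like ribosomal protein genes, start with a terminal oligopyrimidine (TOP) tract, which ties translation of the RNA to cell growth.

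The pluripotency genes POU5F1, NANOG, SOX2, LIN28A, DNMT3B and TDGF1 had between 275 and 2576 TPM and were all in the high class defined below, which fits the label of the cells. Of 13 markers of other cells, CDX2 had no read, 9 were in the low class, and FOXA2 (7.54 TPM), COL1A1 (14.6 TPM) and COL1A2 (25.6 TPM) were in the medium class. TPM is the number of reads per length of the gene, scaled to the same sum in each library. Here it was computed from the counts with the joined length of all annotated exons. Errors are SD over n = 3 replicates. Genes were sorted into classes after the rule in the methods of the study, with the boundaries set here on protein-coding genes. Those below 0.01 TPM were put in the nonexpressed class, and 3 quantiles of the remaining protein-coding genes set the low, medium and high classes, with boundaries at 3.35 and 27.0 TPM.

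The members as a group stood far above other long noncoding RNA (lncRNA) genes. Of the 31 members, 15 (48.4%) were in the high class, 11 in the medium class, 3 in the low class and 2 were nonexpressed. Among all 14157 lncRNA genes in the table, members included, 3.77% were in the high class and 37.5% were nonexpressed. The median level was 22.1 TPM over members and 0.243 TPM over lncRNA genes. Over the 10 members with under 10% of their exon length on exons of other genes it was 8.47 TPM. The snoRNA genes inside a member counted as other genes here, so hosts such as SNHG1 (145 TPM) are not among the 10. Whether the counting used strand is not known. Protein-coding genes that hold a snoRNA gene, 271 in number, are the nearest group in kind, and had a median of 37.4 TPM with 55.7% in the high class. The 28 ribosomal protein genes among these had a median of 601 TPM, and no member reached it with joined exons as gene length. With the canonical transcript as gene length, SNHG16 had 2304 TPM and SNHG29 2176 TPM, and the ribosomal protein genes were not set beside them on that scale. Together the members took 0.291%, 0.301% and 0.298% of all counted reads in replicates 1, 2 and 3, a mean of 0.296 ± 0.00523%. The share was 0.0681% over those 10 members, and 0.161% for all members as a share of TPM. Of the reads on lncRNA genes they took 8.50 ± 0.235%. These shares were concentrated, since SNHG14 alone held 35.2% of the reads on members and SNHG14, SNHG16 and SNHG29 together 65.1%.

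**Figure D1:**
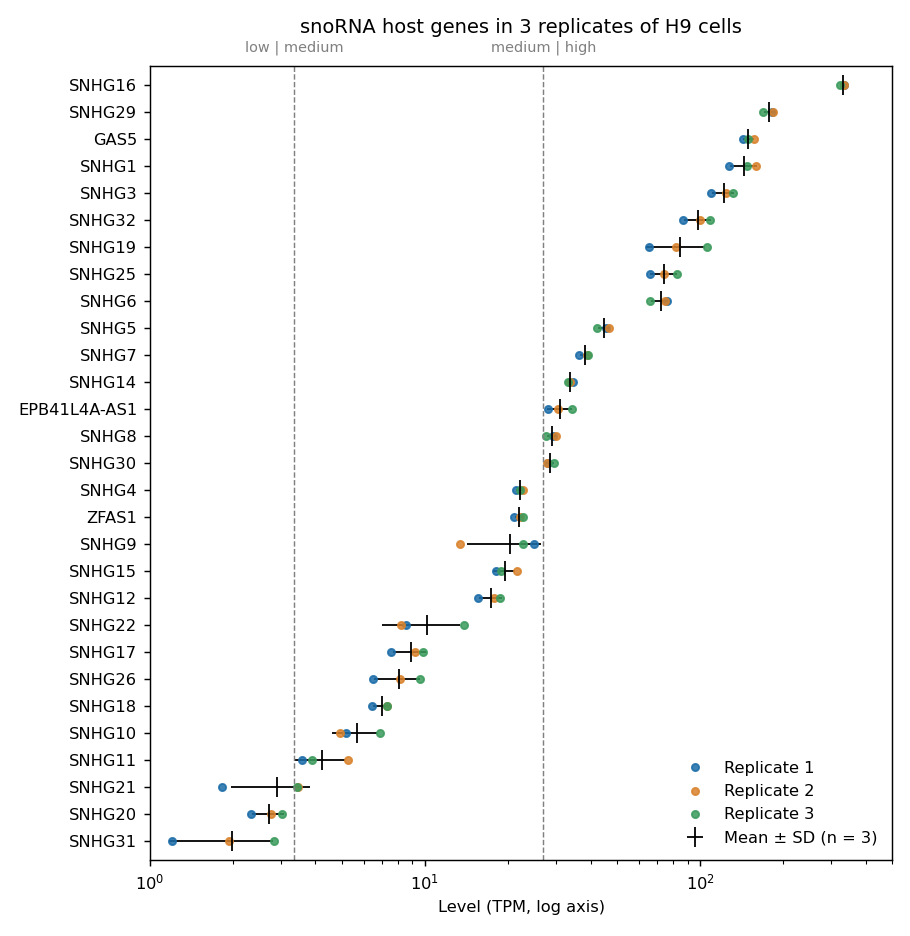
Level of the 29 members with reads in TPM (log axis), with 1 point for each of the 3 replicates and a black tick and bar for the mean and SD. The dashed lines are the class boundaries at 3.35 and 27.0 TPM, and SNHG16 stands alone at the top with 329 TPM while SNHG21, SNHG20 and SNHG31 lie below the lower boundary.

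Some members carry at their start site the tract that defines TOP RNAs, taken here as a C followed by at least 4 bases that are each C or T. It was looked for on the strand of the gene at the start of the transcript marked as canonical in GENCODE, in the GRCh38 (hg38) genome. Exactly at that base it was found in SNHG29, GAS5, ZFAS1 and SNHG12. Windows of 50 bases are shown for the highest 3 members and for ZFAS1. The annotated start is base 21 of each window, and capitals mark the tract. They lie at chr17:76557755-76557804 (SNHG16, plus strand), chr17:16439017-16439066 (SNHG29, plus strand), chr1:173867960-173868009 (GAS5, minus strand) and chr20:49278622-49278671 (ZFAS1, plus strand).
SNHG16: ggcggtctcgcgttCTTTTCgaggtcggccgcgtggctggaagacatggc
SNHG29: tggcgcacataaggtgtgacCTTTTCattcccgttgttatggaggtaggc
GAS5: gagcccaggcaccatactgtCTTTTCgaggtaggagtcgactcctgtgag
ZFAS1: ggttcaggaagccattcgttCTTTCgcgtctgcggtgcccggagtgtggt

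SNHG16, SNHG29 and GAS5 have the same 6 bases in capitals. In SNHG29 and GAS5 they begin at the annotated start, and in SNHG16 they begin 6 bases before it. At the canonical start itself the tract was in 4 of 31 members (12.9%), in 47 of 271 protein-coding hosts (17.3%) and in 59 of 84 ribosomal protein genes (70.2%). The share was 2.79% of all 18866 annotated lncRNA genes and 4.59% of 20033 protein-coding genes. When the tract could begin at any base within 10 of the start, 12 members (38.7%) had it, beside 32.2% of lncRNA genes and 33.6% of protein-coding genes, so that this looser rule hardly separates members from other genes. With the start of any annotated transcript of the gene, 18 members (58.1%) had a tract exactly at a start, beside 30.6% of protein-coding hosts and 5.92% of lncRNA genes. The any-start share was not adjusted for the number of annotated transcripts per gene. The 4 members with a tract at the canonical start ranged from 17.4 to 179 TPM, and the other 27 ranged from 0 to 329 TPM, so the ranges overlapped.

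**Figure D2:**
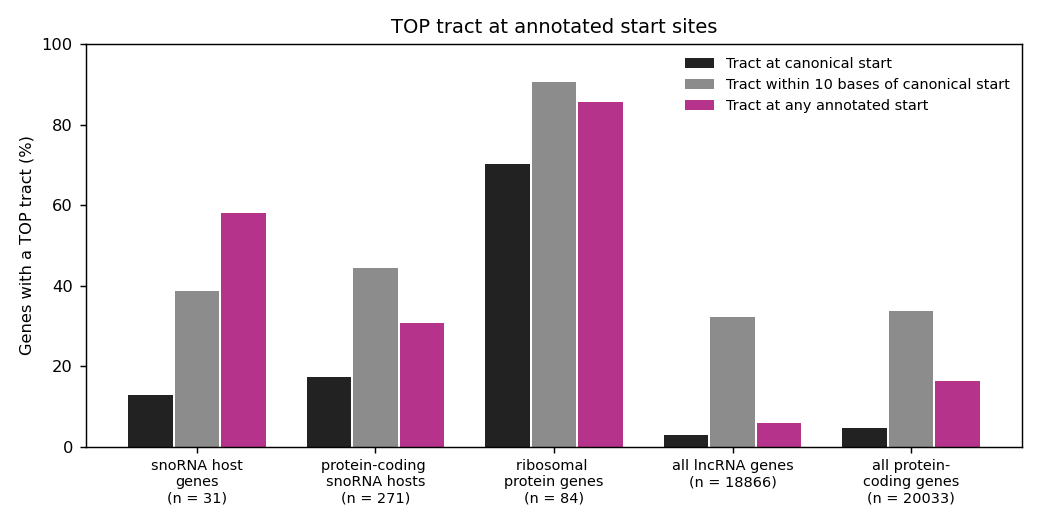
Percent of genes with a TOP tract (vertical axis, from 0 to 100) in 5 groups of genes, whose numbers stand under the axis. Black bars are tracts at the canonical start (12.9% of members, 70.2% of ribosomal protein genes), grey bars tracts within 10 bases of it, and magenta bars tracts at any annotated start (58.1% of members).

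By the snoRNAs that GENCODE and RefSeq place inside them, 12 members are hosts of box C/D snoRNAs, 11 of H/ACA snoRNAs, 4 of Cajal body RNAs and 3 of both C/D and H/ACA snoRNAs. SNHG28 holds only a predicted snoRNA without a family name. The median level was 58.4 TPM over the C/D hosts, 20.4 TPM over the H/ACA hosts and 4.28 TPM over the hosts of Cajal body RNAs. The 4 hosts of Cajal body RNAs, SNHG22, SNHG10, SNHG21 and SNHG20, had no member in the high class.

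Positions of members are those of GENCODE release 44 on GRCh38. Among the C/D hosts, SNHG16 (ENSG00000163597, chr17:76557727-76670985), which holds SNORD1A, SNORD1B and SNORD1C, had 332, 333 and 322 TPM in replicates 1, 2 and 3, a mean of 329 ± 6.30 TPM. It was the highest member in every replicate and ranked 38 among lncRNA genes. SNHG29 (ENSG00000175061, chr17:16438767-16480249), the host of SNORD49A, SNORD49B and SNORD65, had 182, 185 and 169 TPM, a mean of 179 ± 8.41 TPM. The replicate ranges of these genes did not overlap, and the mean of SNHG16 was 1.84 times that of SNHG29. SNHG1 (ENSG00000255717, chr11:62851978-62855953), also known as the U22 host gene, had 127, 159 and 147 TPM (145 ± 16.2 TPM). SNHG1 holds 8 named snoRNAs, from SNORD22 to SNORD31, and its range overlapped that of GAS5. Only SNHG16, SNHG29 and GAS5 were among the 100 lncRNA genes of highest level.

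SNHG32 (ENSG00000204387, chr6:31834608-31839766), host of SNORD48 and SNORD52, had 86.8, 99.8 and 109 TPM (98.5 ± 11.1 TPM). SNHG19 (ENSG00000260260, chr16:2154792-2155405), host of SNORD60, had 65.1, 81.8 and 106 TPM (84.2 ± 20.4 TPM). The values of SNHG19 were the most scattered of the 20 members with at least 300 reads, with a coefficient of variation (CV) of 24.2% where counting error alone gives 8.78%. SNHG6 (ENSG00000245910), host of SNORD87, had 76.0, 74.3 and 65.6 TPM (72.0 ± 5.57 TPM). SNHG5 (ENSG00000203875, chr6:85650491-85678932), host of SNORD50A and SNORD50B, had 45.4, 46.7 and 42.2 TPM (44.8 ± 2.32 TPM). Every replicate of SNHG6 lay above every replicate of SNHG5, and every replicate of SNHG32 above every replicate of SNHG6. The range of SNHG19 overlapped those of SNHG32 and SNHG6.

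Lower on the scale of C/D hosts, SNHG14 (ENSG00000224078) had 34.4, 33.7 and 33.0 TPM (33.7 ± 0.694 TPM), with a CV of 2.06%. SNHG30 (ENSG00000267321, chr17:35568050-35574900), host of SNORD7, had 28.0, 27.7 and 29.5 TPM (28.4 ± 0.943 TPM). ZFAS1 (ENSG00000177410, chr20:49278178-49299600), which holds 3 SNORD12 genes, had 21.1, 22.1 and 22.7 TPM (22.0 ± 0.806 TPM). These genes lay close to the boundary between the medium and the high class, SNHG14 and SNHG30 just above it and ZFAS1 below. SNHG26 (ENSG00000228649, chr7:22854126-22872952), host of SNORD93, had 6.48, 8.13 and 9.58 TPM (8.06 ± 1.56 TPM). SNHG18 (ENSG00000250786, chr5:9546170-9550725), host of SNORD123, had 6.41, 7.25 and 7.31 TPM (6.99 ± 0.500 TPM) and was the lowest C/D host.

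Among the hosts of both kinds, GAS5 (ENSG00000234741, chr1:173858559-173868882), the growth arrest-specific transcript whose RNA also binds the glucocorticoid receptor, had 143, 157 and 150 TPM (150 ± 6.87 TPM). RefSeq lists 11 snoRNAs in it, SNORD44, SNORD47, SNORD74 to SNORD81 and SNORA103, and GENCODE release 44 lists none there, so their counts could not be given. SNHG25 (ENSG00000266402, chr17:64145937-64146476), host of SNORD104 and SNORA50C, had 65.5, 73.9 and 82.2 TPM (73.9 ± 8.31 TPM) from 58, 76 and 62 reads, and its CV of 11.3% was no larger than the 12.5% of counting error. SNHG12 (ENSG00000197989, chr1:28578538-28583132), with SNORD99, SNORA16A, SNORA44 and SNORA61, had 15.6, 17.8 and 18.8 TPM (17.4 ± 1.65 TPM).

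The highest H/ACA host was SNHG3 (ENSG00000242125, chr1:28505980-28510892), which carries the U17 RNAs SNORA73A and SNORA73B, needed for cleavage of the precursor of ribosomal RNA rather than for its modification. It had 109, 124 and 132 TPM (122 ± 11.5 TPM). SNHG7 (ENSG00000233016, chr9:136721366-136728184), host of SNORA17A and SNORA17B, had 36.4, 38.9 and 39.0 TPM (38.1 ± 1.47 TPM). EPB41L4A-AS1 (ENSG00000224032, chr5:112160526-112164818), host of SNORA13, had 27.9, 30.5 and 34.3 TPM (30.9 ± 3.22 TPM). In the means with joined exons as gene length, a gap of more than 3-fold thus separated SNHG3 from the other H/ACA hosts. The gap was smaller with other lengths. With the longest transcript SNHG3 had 143 TPM and SNHG7, the next, 59.6 TPM. With the canonical transcript SNHG3 had 136 TPM and SNHG17, the next, 51.6 TPM. With joined exons, 4 of the 11 H/ACA hosts were in the high class. SNHG8 (ENSG00000269893, chr4:118278703-118285316), host of SNORA24, was the fourth of these, with 29.1, 29.8 and 27.6 TPM (28.8 ± 1.14 TPM).

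In the medium class, SNHG4 (ENSG00000281398, chr5:139274102-139284899), host of the U19-related SNORA74A and SNORA74D, had 21.4, 22.8 and 22.2 TPM (22.1 ± 0.687 TPM). SNHG9 (ENSG00000255198, chr16:1964895-1965509), host of SNORA78, had 25.0, 13.4 and 22.7 TPM (20.4 ± 6.12 TPM). SNHG15 (ENSG00000232956, chr7:44983019-44986961), host of SNORA9, had 18.1, 21.5 and 18.9 TPM (19.5 ± 1.80 TPM). The replicates of SNHG9 spanned the range of both neighbours, with 40, 25 and 31 reads behind them. SNHG17 (ENSG00000196756, chr20:38419638-38435409), host of the SNORA71 genes, had 7.55, 9.21 and 9.88 TPM (8.88 ± 1.20 TPM). SNHG11 (ENSG00000174365, chr20:38446343-38450940), host of SNORA60 and SNORA71E, had 3.57, 5.26 and 3.88 TPM (4.24 ± 0.900 TPM).

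At the bottom, SNHG31 (ENSG00000229267, chr2:214810181-214963575), host of SNORA70I, had 8, 15 and 16 reads, or 1.20, 1.94 and 2.82 TPM (1.99 ± 0.811 TPM). SNHG27 (ENSG00000251676, chr4:131727587-131791492), host of SNORA70, and SNHG28 (ENSG00000188004, chr1:159834480-159855071) had no read in any replicate. Of the exon length of SNHG28, 90.8% lies on exons of ENSG00000256029, a protein-coding gene on the same strand that also had no read, and reads on both could have been left out as shared, which was not tested. For SNHG27, a count of 0 allows up to 3 reads, which is 0.289, 0.249 and 0.347 CPM (counts scaled to the total of the library) in replicates 1, 2 and 3. This floor, like every interval from counts, covers counting error only, since reads copied by PCR are not independent molecules. The other 29 members had more than 3 reads in every replicate, and 27 of them had at least 10.

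The hosts of Cajal body RNAs were all low to medium. SNHG22 (ENSG00000267322, chr18:49813965-49851059), host of SCARNA17, had 8.51, 8.19 and 13.9 TPM (10.2 ± 3.19 TPM). SNHG10 (ENSG00000247092, chr14:95521943-95534889), host of SCARNA13, had 5.16, 4.92 and 6.88 TPM (5.65 ± 1.07 TPM). Replicate 3 was the highest in both. SNHG21 (ENSG00000250988, chr15:82750564-82757206), host of SCARNA15, had 5, 11 and 8 reads, or 1.82, 3.45 and 3.42 TPM (2.90 ± 0.932 TPM). SNHG20 (ENSG00000234912, chr17:77086716-77099902), host of SCARNA16, had 2.34, 2.77 and 3.03 TPM (2.71 ± 0.353 TPM). Their replicate ranges overlapped, so with joined exons as gene length SNHG21 and SNHG20 have no order beyond the spread. With the canonical transcript SNHG20 (18.9 TPM) lay above SNHG21 (2.33 TPM) in every replicate.

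Over the whole order there are 28 pairs of neighbours, and in 19 of them the replicate ranges overlapped. The order was clear of this overlap between SNHG16 and SNHG29, SNHG29 and GAS5, SNHG3 and SNHG32, SNHG6 and SNHG5, SNHG5 and SNHG7, SNHG7 and SNHG14, SNHG30 and SNHG4, SNHG12 and SNHG22, and SNHG11 and SNHG21. This order holds for joined exons as gene length. With the longest transcript SNHG14 (129 TPM) lay above SNHG7 (59.6 TPM) and SNHG4 (31.2 TPM) above SNHG30 (23.02 TPM). With the canonical transcript both pairs were also turned, with 356 and 47.8 TPM and with 25.0 and 19.7 TPM. SNHG5 (259 TPM) then lay above SNHG6 (60.3 TPM). With the longest transcript, the replicate ranges of SNHG3 and SNHG32, of SNHG6 and SNHG5, and of SNHG11 and SNHG21 overlapped. For the 20 members with at least 300 reads, the median CV was 6.46%, where counting error alone gives a median of 4.63%. Over all 10426 genes with that many reads the median CV was 5.78%. The common biological coefficient of variation fitted by edgeR was 0.0728 over 27 members and 0.0614 over 15867 genes. Without replicate 3 the values were 0.0663 and 0.0330, and without replicate 1 they were 0.0473 and 0.0690, so that which was larger depended on the library left out. In replicate 3, 13 of these 20 members lay above the mean of the other replicates, by a median log2 difference of 0.05 over all 20 and a range from -0.20 (SNHG6) to 0.52 (SNHG19). Over all genes with that many reads the same difference had a median of -0.03 and an SD of 0.18 between genes. Members with a higher GC content in their exons tended to lie higher in replicate 3 (Spearman's rho 0.51 across these 20 genes, which share the same 3 libraries), and the part of base composition in the spread was not tested.

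Levels per length depend on which length is taken, and for many members the choice mattered more than the replicates. The joined exons of a member, as annotated, are often far longer than any one transcript. SNHG29 has 8947 bases of annotated exons from 62 transcripts and a canonical transcript of 443 bases. With the canonical transcript as gene length, 13 of 29 members moved by over 1.5-fold, by factors from 0.647 (SNHG8) to 12.2 (SNHG29). SNHG16 then had 2304 ± 34.9 TPM, SNHG29 2176 ± 94.1 TPM, GAS5 580 ± 26.7 TPM, SNHG14 356 ± 6.14 TPM, SNHG1 299 ± 33.5 TPM and SNHG5 259 ± 12.5 TPM. SNHG16, SNHG29 and GAS5 thus stayed the highest members in the same order, and SNHG14 rose from place 12 to place 4. SNHG17 (51.6 TPM), SNHG26 (36.2 TPM), SNHG20 (18.9 TPM) and SNHG11 (10.8 TPM) also rose over 1.5-fold, while SNHG25 (48.7 TPM), SNHG8 (18.7 TPM) and SNHG18 (4.60 TPM) fell. With the longest transcript, 7 of 29 moved by over 1.5-fold, SNHG14 (129 TPM), SNHG17 (30.1 TPM), SNHG29 (363 TPM), SNHG26 (14.6 TPM), SNHG5 (73.7 TPM), SNHG12 (28.0 TPM) and SNHG7 (59.6 TPM). The number in the high class was 15 with the longest and 14 with the canonical transcript.

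**Figure D3:**
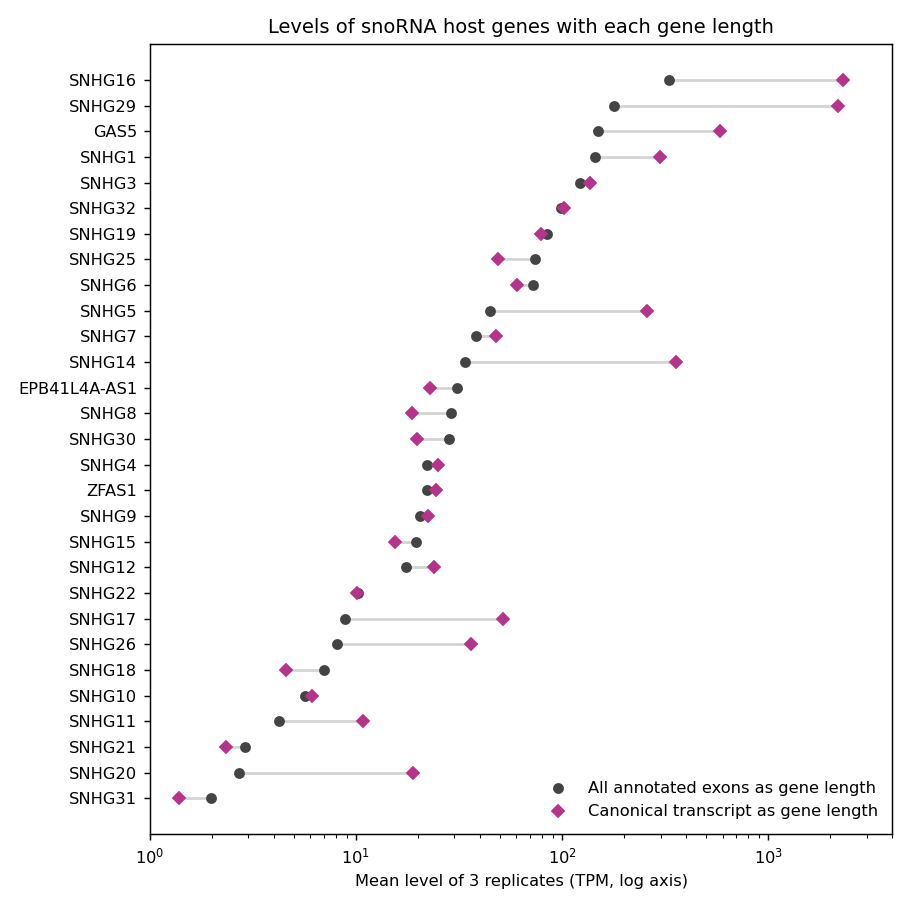
Mean level of each of the 29 members with reads in TPM (log axis), with all annotated exons as gene length (grey circles) or the canonical transcript (magenta diamonds). SNHG29 moves from 179 to 2176 TPM and SNHG14 from 33.7 to 356 TPM, while SNHG3 and SNHG32 hardly move.

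Many members share exon sequence with a gene on the opposite strand or start next to one, and whether the counting used the strand of reads is not given in the sources used here. Such reads cannot be assigned with certainty. Of the exon length of SNHG6, 58.9% lies on exons of MCMDC2 on the opposite strand, and of EPB41L4A-AS1 51.2% lies on EPB41L4A. The shares were 37.6% for SNHG8 (PRSS12), 30.3% for SNHG7 (DIPK1B) and 28.5% for SNHG16 (an unnamed protein-coding gene without counts in the table). In reads per kilobase of exon, summed over replicates, SNHG6 had 568 and MCMDC2 113, EPB41L4A-AS1 had 241 and EPB41L4A 93.3, and SNHG8 had 227 and PRSS12 71.8. In each of these pairs the host was the higher gene, and SNHG7 (299) and DIPK1B (259) were closer. Other neighbours with shared exon sequence on the opposite strand were higher than the host, with 836 for GLRX5 and 43.6 for SNHG10, 281 for UBE3A and 265 for SNHG14, 195 for ZNFX1 and 172 for ZFAS1, and 155 for TRNAU1AP and 136 for SNHG12. The shared part was small in these, at most 5.54% of the exon length of the host (SNHG10, 301 bases), and how many of the 237 reads on SNHG10 came from GLRX5 was not tested. Only 10 members had under 10% of their exon length shared with any other gene, the snoRNA genes inside them included. SNHG1 (15.4%), SNHG19 (13.5%), SNHG25 (39.7%) and SNHG9 (20.7%) shared exon length only with their own snoRNA genes.

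Head-to-head starts within 1 kb on opposite strands were found for GAS5 and ZBTB37, SNHG10 and GLRX5, SNHG18 and SEMA5A, SNHG19 and TRAF7, SNHG22 and ACAA2, SNHG31 and BARD1, SNHG9 and RPS2, and ZFAS1 and ZNFX1 among protein-coding partners. The partners had 12.1 TPM (ZBTB37), 106 TPM (GLRX5), 13.2 TPM (SEMA5A), 132 TPM (TRAF7), 67.3 TPM (ACAA2), 39.2 TPM (BARD1), 1138 TPM (RPS2) and 24.8 TPM (ZNFX1). TRAF7 and SNHG19 (84.2 TPM) were both in the high class, and the other hosts beside partners in the high class were lower. SNHG9, which starts 69 bases from RPS2, the gene of a protein of the small ribosomal subunit, had 20.4 TPM, and SNHG31 had 1.99 TPM beside BARD1, the partner of BRCA1. GAS5 was the one host of these 8 with a level over 10 times that of its partner.

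The snoRNA genes were also counted by the authors as genes of their own. Inside the spans and on the strand of 30 members GENCODE has 144 snoRNA and Cajal body RNA genes that are in the table. SNORA16A, SNORA17A, SNORA17B, SNORA50C and SNORD60 are each annotated more than once on nearly the same bases. Each such entry counts as a gene here. Of the 144 genes, 34 (23.6%) had more than 3 reads in every replicate and 96 (66.7%) had no read, beside 8.38% and 70.5% of all 990 snoRNA genes in the table, members' genes included. Both numbers rest largely on 1 host, SNHG14. Of the 34 genes, 18 were its SNORD116 copies, and of the 96 genes, 49 were its SNORD115 copies. The members' snoRNA genes held 47.2 ± 1.02% of the reads on all 990 snoRNA genes, which were 6572, 7876 and 5625 reads. Most came from few genes, and SNORA73B in SNHG3 alone held 54.5 ± 3.66% of the members' snoRNA reads. By length, the 4 member snoRNA genes of 200 bases or more (SNORA73B, SCARNA13, SNORA71B and SNORA73A) held 65.6% of the reads, and the 110 genes under 100 bases held 24.7%. This rested on SNORA73B. Without it, in a split made after seeing the data, the shares were 23.9% and 54.7%. Over all snoRNA genes in the table, 32.1% of the 81 genes of 200 bases or more had reads, as did 31.9% of those from 100 bases to that length and 25.8% of those under 100 bases. RNA was isolated with the RNeasy kit, whose columns retain short RNA poorly, and the part of this in the counts was not tested.

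SNORA73B of SNHG3 and SCARNA13 of SNHG10 are printed as the only snoRNA genes inside members with more reads than the member itself. SNORA73A is printed because it is nearly the same as SNORA73B. They lie at chr1:28508559-28508762 (SNORA73B, plus strand), chr1:28507366-28507571 (SNORA73A, plus strand) and chr14:95533355-95533629 (SCARNA13, minus strand) in GRCh38. Capitals mark the ACA near the 3′ end that names the H/ACA family.
SNORA73B: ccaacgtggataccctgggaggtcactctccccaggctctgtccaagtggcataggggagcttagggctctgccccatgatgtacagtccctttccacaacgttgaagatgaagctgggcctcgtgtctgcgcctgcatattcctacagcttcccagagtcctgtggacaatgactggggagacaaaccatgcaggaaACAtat
SNORA73A: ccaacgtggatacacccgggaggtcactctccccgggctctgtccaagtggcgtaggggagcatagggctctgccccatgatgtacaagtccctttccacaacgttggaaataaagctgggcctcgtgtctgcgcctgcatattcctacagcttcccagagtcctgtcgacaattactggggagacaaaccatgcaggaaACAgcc
SCARNA13: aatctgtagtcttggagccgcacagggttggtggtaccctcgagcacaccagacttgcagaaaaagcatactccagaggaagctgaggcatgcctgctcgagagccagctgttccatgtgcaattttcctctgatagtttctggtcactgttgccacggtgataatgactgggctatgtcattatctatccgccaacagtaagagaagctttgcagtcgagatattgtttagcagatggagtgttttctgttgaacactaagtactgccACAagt

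SNORA73B had 1833, 2026 and 1330 reads, while its host SNHG3 had 1161, 1539 and 1195, a ratio of 1.34 ± 0.234. SNORA73A, with 93.2% identical bases, had no read. SNORA73A lies wholly in an annotated exon of SNHG3 and SNORA73B in none, so reads on SNORA73A could have been left out as shared between genes, which was not tested. SNORA73B also lies in an intron of the coding gene RCC1, whose transcripts span SNHG3, with 5081 reads on RCC1, so its reads cannot be assigned to 1 host. SCARNA13 had 281, 394 and 305 reads against 73, 81 and 83 on SNHG10, a ratio of 4.13 ± 0.642, and lies wholly in an annotated exon of it. In every replicate SNORA73B exceeded SNHG3 and SCARNA13 exceeded SNHG10. Against RCC1 the ratio of SNORA73B was 1.02, 1.04 and 0.987 in replicates 1, 2 and 3.

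**Figure D4:**
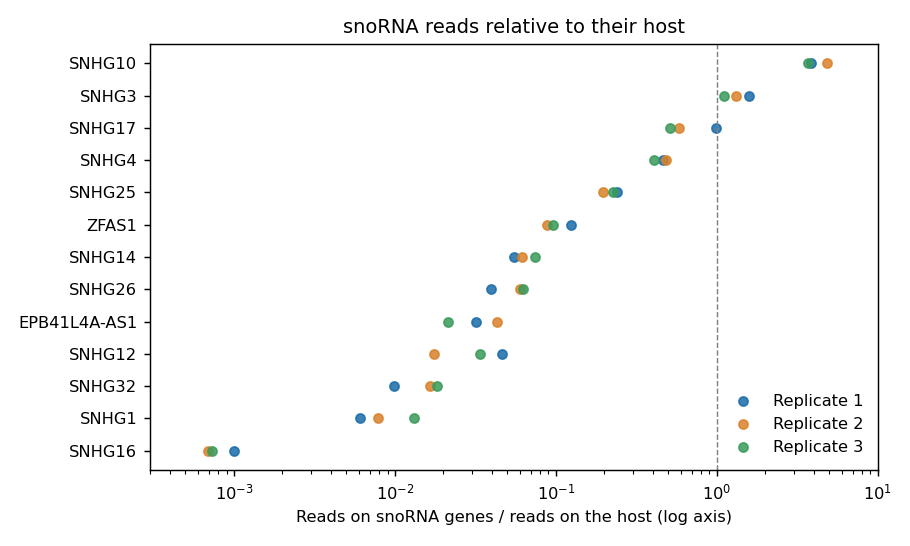
Reads on the snoRNA genes inside a member divided by reads on the member (log axis), for the 13 members whose snoRNA genes had reads in every replicate, with 1 point for each replicate. SNHG10 and SNHG3 lie above 1 (dashed line) in every replicate, while SNHG16 lies near 0.001.

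Of the other H/ACA hosts, SNHG17 had reads on 4 of its 5 SNORA71 genes. SNORA71A had 154, 115 and 78 reads, and over the 3 replicates SNORA71D had 103, SNORA71C 70, SNORA71B 41 and SNORA71 none. The sequences of SNORA71A, the gene with the most reads, at chr20:38427309-38427442, and of SNORA71, at chr20:38421647-38421774, both on the minus strand, are set side by side as a gene of the family with reads and one without. Capitals mark the terminal ACA, which SNORA71 lacks.
SNORA71A: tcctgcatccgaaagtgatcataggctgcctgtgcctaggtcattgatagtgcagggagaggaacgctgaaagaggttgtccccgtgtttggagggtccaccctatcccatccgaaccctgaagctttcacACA
SNORA71: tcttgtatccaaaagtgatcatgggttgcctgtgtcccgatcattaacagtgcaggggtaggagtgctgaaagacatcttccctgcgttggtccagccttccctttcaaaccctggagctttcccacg

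SNORA71B, with 41 reads, and SNORA74D, described next, also have no ACA within the last 9 bases as annotated. SNORA71B is annotated with 272 bases, where SNORA71A has 134, and holds an ACA further from its annotated end. An ACA within the last 9 bases was present in 84.0% of 25 H/ACA snoRNA genes in members and in 82.2% of all 214. In SNHG4, SNORA74D had 72, 102 and 56 reads and SNORA74A 43, 46 and 34, against 249, 308 and 220 reads on the host. Both also lie in an intron of a gene entry named MATR3 (ENSG00000280987), which spans SNHG4. This entry had 125 reads over the 3 replicates, against 230 on SNORA74D and 123 on SNORA74A. Reads on any other entry for MATR3 were not looked at, so the 125 reads are not a level of MATR3 as a whole. SNORA13 in EPB41L4A-AS1 had 10, 17 and 7 reads. SNORA60 in SNHG11 and SNORA70I in SNHG31 had 3 reads each in all. The snoRNA genes of SNHG7, SNHG8, SNHG9, SNHG15 and SNHG27 had none. In SNHG7, SNORA17A and SNORA17B each overlap a further entry on nearly the same bases. Reads there could have been left out as shared, which was not tested.

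The C/D snoRNAs outside SNHG14 had few reads even where the host was high. SNHG16, with 14953 reads, had 5, 4 and 3 reads on SNORD1B and none on SNORD1A and SNORD1C. The 3 snoRNA genes of SNHG29 had no read beside 12595 on the host. SNORD50B of SNHG5 and SNORD87 of SNHG6 had none either, and SNORD50A of SNHG5 was not among the counted snoRNA genes. In SNHG1, SNORD30 had 8, 15 and 17 reads and the other 6 counted snoRNA genes none. Of these 5 hosts, only SNHG16 and SNHG1 had any read on a counted snoRNA. ZFAS1 had 81 reads on SNORD12C, 65 on SNORD12B and none on SNORD12 over the 3 replicates. SNORD104 in SNHG25 had 14, 15 and 14 reads, SNORD93 in SNHG26 had 5, 11 and 10, SNORD48 in SNHG32 had 4, 9 and 8, and SNORD99 in SNHG12 had 8, 4 and 6. All of these were below their hosts in every replicate. SNORD7 in SNHG30 and SNORD60 in SNHG19 had 2 and 1 reads in all, and SNORD123 in SNHG18 had none. SCARNA15, SCARNA16 and SCARNA17 in the Cajal body hosts SNHG21, SNHG20 and SNHG22 also had none.

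Position in the annotation differed between these genes. Of the 79 snoRNA genes that lie wholly in annotated exons of their host, 48 (60.8%) had no read, and of the 59 intronic ones 45 (76.3%) had none, 40 of which are SNORD115 genes. Without the SNORD115 genes, in a split made after seeing the data, 42 of 73 in exons (57.5%) and 5 of 19 in introns (26.3%) had no read. Among snoRNA genes in protein-coding hosts there was no read on 83 of 92 in exons (90.2%) and on 106 of 250 in introns (42.4%). GENCODE release 44 may place exons where the annotation used for counting did not. The part of shared annotation in the counts was not tested.

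SNHG14, the longest member with a span of 441754 bases at chr15:24978583-25420336 on the plus strand, is the host of both tandem arrays of C/D snoRNAs in the Prader-Willi region. It is imprinted and made from the paternal chromosome. Its 3′ part runs antisense to UBE3A, and SNORD115 is known chiefly from brain. In H9 cells the arrays differed entirely. The 30 SNORD116 genes, at chr15:25051477-25108352, had 602, 765 and 668 reads, with reads on 27 of them and more than 3 in every replicate on 18. The 49 SNORD115 genes, at chr15:25159221-25269858, had no read in any replicate. SNORD116-13 had 165, 239 and 195 reads and SNORD116-18 had 124, 126 and 106. SNORD116-6 followed with 79, 68 and 85, SNORD116-26 with 57, 75 and 65, and SNORD116-14 with 33, 51 and 40. These 5 genes were the highest in the array, and SNORD116-20, SNORD116-21 and SNORD116-28 had no read.

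The leading SNORD116 genes and 1 SNORD115 gene are printed to show that both arrays keep the boxes of the family. SNORD116-13 lies at chr15:25079058-25079149, SNORD116-18 at chr15:25085385-25085476 and SNORD115-2 at chr15:25172635-25172716, all on the plus strand. Capitals mark box C (TGATGA) and box D (CTGA).
SNORD116-13: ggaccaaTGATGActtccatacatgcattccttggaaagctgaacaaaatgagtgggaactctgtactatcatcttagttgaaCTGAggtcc
SNORD116-18: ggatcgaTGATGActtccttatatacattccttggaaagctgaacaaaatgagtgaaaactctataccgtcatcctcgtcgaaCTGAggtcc
SNORD115-2: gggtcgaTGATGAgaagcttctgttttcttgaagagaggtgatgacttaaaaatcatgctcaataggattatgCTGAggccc

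Both boxes, searched on the strand of the gene as TGATGA starting in the first 21 bases and CTGA in the last 14, were present in 28 of 30 SNORD116 genes and in 41 of 49 SNORD115 genes, beside 62.0% of all 313 SNORD genes. The copies of each array are alike. For each copy the median identity to the other copies of its array was taken. The median of these values was 85.4% over SNORD116 genes and 93.9% over SNORD115 genes. Reads from copies this close may have been placed on the wrong copy or left out. For 6 SNORD116 genes another copy has the same sequence, and these had 110 reads together of the 2035 on the array. The 24 others, with a median identity of 96.3% to their nearest copy, had 1925. In SNORD115, 9 of 49 genes have an identical copy, and the median identity to the nearest copy was 98.8%. The part of such copies in the counts of either array was not tested.

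**Figure D5:**
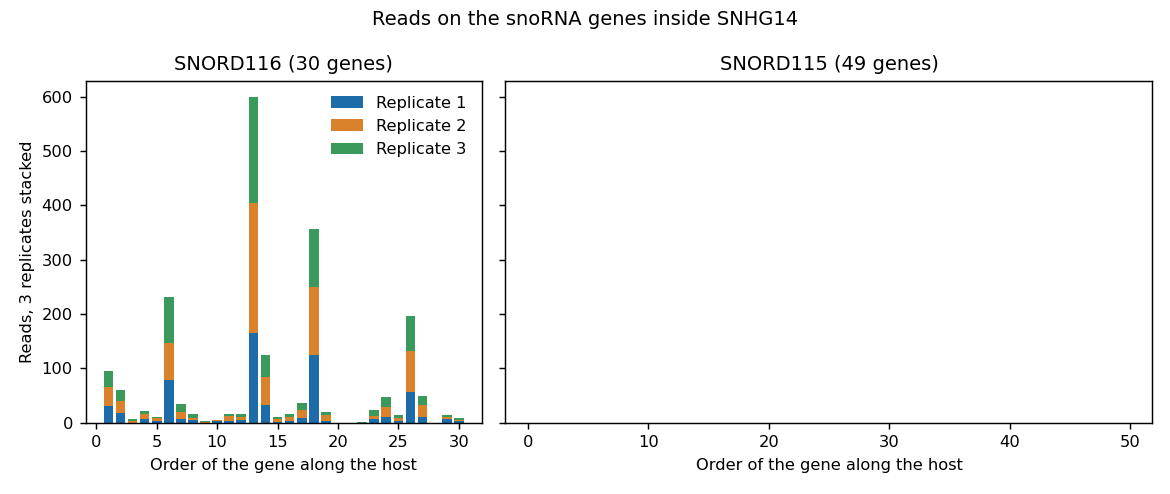
Reads on each of the 30 SNORD116 genes (left) and 49 SNORD115 genes (right) inside SNHG14, in their order along the host, with the 3 replicates stacked and 1 vertical axis for both panels. SNORD116-13 reaches 599 reads, and all SNORD115 genes are at 0.

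SNHG14 itself had 10972, 12492 and 8977 reads, which spread over 122609 bases of annotated exons from 142 transcripts. Its canonical transcript starts at 25193313, downstream of all SNORD116 genes and inside the SNORD115 array, so the level of 356 TPM by its length rests on reads from outside it as well. PWAR5 lies wholly in exons of SNHG14 on the same strand and had 2995, 3073 and 2257 reads of its own. Around the host, in genes chosen after their values were seen, SNRPN had 73.4 ± 8.44 TPM and SNURF 4.09 ± 0.799 TPM upstream, and UBE3A had 35.7 ± 1.20 TPM on the opposite strand. Of the exon length of SNRPN 43.9% is shared with other genes, and of SNURF 52.1%, so reads on those parts cannot be assigned with certainty. Exons of SNHG14 cover 9.57% of the exon length of UBE3A. Of paternally expressed genes further upstream, NDN had 62.1 ± 2.97 TPM, MAGEL2 7.00 ± 0.207 TPM and MKRN3 0.0545 ± 0.00845 TPM from 1 read in each replicate.

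The genes that build snoRNA particles and degrade host RNA were expressed throughout. All 4 core proteins of box C/D particles were in the high class, with 414 ± 21.0 TPM for the methyltransferase gene FBL, 217 ± 8.00 for NOP56, 186 ± 8.37 for NOP58 and 148 ± 7.72 for SNU13. All 4 core proteins of H/ACA particles were as well, with 248 ± 10.4 TPM for NHP2, 151 ± 6.69 for NOP10, 75.7 ± 7.92 for the pseudouridine synthase gene DKC1 and 73.3 ± 5.75 for GAR1. The box C/D set thus had a median of 201 TPM and the H/ACA set of 113 TPM. Of 10 assembly factor genes, RUVBL2 (118 TPM), RUVBL1 (75.5 TPM), PIH1D1 (71.7 TPM), RPAP3 (40.4 TPM) and NUFIP1 (34.4 TPM) were in the high class. NAF1 (25.4 TPM), ZNHIT3 (25.0 TPM), ZNHIT6 (23.6 TPM), SHQ1 (23.5 TPM) and NOPCHAP1 (15.0 TPM) were in the medium class.

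Among genes that release and trim snoRNAs, the exonuclease genes XRN2 (337 ± 17.4 TPM) and EXOSC10 (76.3 ± 2.41 TPM) were in the high class. The debranching enzyme gene DBR1 (18.8 ± 0.904 TPM) and PARN (22.7 ± 1.32 TPM), which trims the 3′ end of H/ACA RNAs, were in the medium class. Among genes of nonsense-mediated decay, those in the high class included SMG5 (176 TPM), UPF1 (60.3 TPM), UPF2 (58.2 TPM), UPF3B (51.8 TPM), SMG8 (37.3 TPM), SMG1 (35.0 TPM), SMG6 (28.9 TPM) and UPF3A (28.1 TPM). SMG9 (9.95 TPM) was in the medium class. For the Cajal body, COIL, its scaffold, had 53.5 ± 1.77 TPM and WRAP53, which brings RNAs to it, had 25.5 ± 0.339 TPM. Of the genes named from these lists, DBR1, SMG9 and NOPCHAP1 were below the median of the members' means (22.1 TPM) and the others above it. PARN, SHQ1 and ZNHIT6 lay above it by less than their own SD.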

How the data were processed

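RNA-seq of 3 replicates of untreated H9 cells (group H9) was used, without the other assays of the study. The authors trimmed the reads with Trim Galore (0.4.4), aligned them to GRCh38 with TopHat2 (2.1.1) and deposited whole-number counts of reads per gene, without normalization. Cufflinks (2.2.1) is also named in the submitters' processing notes. How the reads were counted (tool, annotation, strand) is not given in the sources used here. Each deposited table holds 1 library, and 56948 of 58051 identifiers matched GENCODE release 44.

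TPM was computed from the counts over the joined exons and averaged over replicates. Totals of 8655155 to 12024802 reads limit precision at low levels. Spread was fitted with edgeR (4.0.16, TMM, filterByExpr, intercept only), and DESeq2 (1.42.0) gave size factors. Scripts ran in Python 3.11.15 with pandas 2.3.3 and pysam 0.24.0, and in R 4.3.3. The TPM, class and spread steps were tested on simulated data. Genes inside members are GENCODE snoRNA genes on the same strand. Sequences were read from hg38, and names of snoRNAs within GAS5 come from RefSeq (GRCh38.p14).

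Every member was named. The genes of the lists, apart from one that is not reported here, and the snoRNA gene with the most reads in each member were named too, with all over 100 reads, and values by replicate were required for the 10 highest members, those under 10 reads and those moved over 1.5-fold by a gene length. The members and lists were chosen with earlier results of these data known. Alternatives were other gene lengths, scalings, totals, filters, class boundaries, minimums, positions and overlaps, counts thinned to 50%, and leaving out each replicate. Leaving out SNORA73B or the SNORD115 genes was added after seeing the data. No group comparison was possible.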

Additional observations from a re-analysis of the deposited data

How the results depend on the processing

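The number of members in the high class (15) was 14 to 15 under other gene lengths, scalings, totals and replicates, and 22 with class boundaries set on all genes. The number with more than 3 reads (29) was 27 with at least 10 reads and 28 with counts thinned to 50%. The median over members (22.1 TPM) was 28.4 TPM with the longest and 24.4 TPM with the canonical transcript, 28.8 TPM over members kept by filterByExpr, 8.47 TPM over the 10 members with under 10% shared exon length, and 22.1 to 23.8 TPM with a replicate left out. The summed level (1610 TPM) was 2073 TPM with the longest and 6762 TPM with the canonical transcript and 1678 TPM without mitochondrial genes. The summed share (0.296%) was 0.161% as a share of TPM and 0.0681% over the 10 members with little shared exon length. Those 10 leave out SNHG14 and SNHG16, and also SNHG1, whose shared exon length is that of its own snoRNA genes. The protein-coding hosts (37.4 TPM) had 41.1 and 39.0 TPM with the longest and the canonical transcript. The number of snoRNA genes with more than 3 reads in every replicate (34) was 9 in introns alone and 19 with at least 10 reads in each, and the number of members with a TOP tract (4) was 12 within 10 bases and 18 at any start.

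With a replicate left out, the biological coefficient of variation ranged from 0.0473 to 0.102 over members and from 0.0330 to 0.0796 over all genes, and members were the lower of the 2 groups without replicate 1 (0.0473 and 0.0690). No single member moved beyond its own SD with TMM factors or DESeq2 size factors. The causes of these shifts were not tested beyond what each alternative changes by construction. Depth limits most SNHG21, SNHG31, SNHG9, SNHG18, SNHG20, SNHG11, SNHG25, SNHG22 and SNHG10, which had 24 to 237 reads over the 3 replicates. No paired analysis was possible because there is 1 condition.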
